A study of Mus musculus with 12 samples.

Results

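Translation factors are the proteins that bring a messenger RNA, the ribosome and the initiator tRNA together and then move the ribosome along the coding sequence. The 66 genes described here are the protein-coding rows, of 54100 in the count table, whose symbols begin with Eif1 to Eif6 or with Eef1 or Eef2. The Eif2ak kinases and the Y-linked copy Eif2s3y were left out. Of the 66 genes, 53 had enough counts to be tested and 13 did not.

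Fibro-adipogenic progenitors, interstitial mesenchymal cells marked by Pdgfra, make much of the matrix around muscle fibres. They were sorted from mouse plantaris, a calf muscle that had been mechanically overloaded by an operation or had undergone a sham operation. The cdKO mice carried Pdgfra-CreERT2, an inducible Cre recombinase under Pdgfra control, with Yap1 flox/flox and Taz flox/flox, the floxed alleles of both Hippo pathway co-activators. The control mice carried Pdgfra-CreERT2, and no floxed allele is named for them. There were 3 libraries each for cdKO overload, cdKO sham, control overload and control sham. Each was made from 1000 sorted cells with CEL-Seq2, which counts tags near the 3′ end of transcripts. All 4 groups therefore carry the Cre driver. Whether each library had its own animal is not stated in the labels. The p-values therefore rest on differences among libraries that may be technical.

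In initiation, the factor eIF2 carries the initiator tRNA as a complex with GTP, eIF2B recharges it, and eIF3 holds the small ribosomal subunit ready for mRNA. The cap of the mRNA is bound by eIF4E, which is joined through the scaffold eIF4G to the helicase eIF4A, and eIF4E-binding proteins block that joint when the kinase complex mTORC1 is inactive. In elongation, eEF1A brings each aminoacyl-tRNA, the eEF1B complex recharges eEF1A, and eEF2 moves the ribosome on by a codon. The core factors are needed in every nucleated cell, while some paralogs are limited to certain tissues. In muscle translation factors are best known from the growth of overloaded fibres rather than from the interstitial cells measured here.

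Library totals ran from 336437 to 1564581 counts. Levels are given as normalised CPM, in which a gene's counts are divided by the library's total over the tested genes, scaled by TMM factors. Where CPM of all counts is written, the divisor is the library's whole total. A gene was said to rise or fall where edgeR's quasi-likelihood test gave a Benjamini-Hochberg adjusted p under 0.05 over the 8161 genes tested. The targeted gene Wwtr1, which encodes TAZ, was at 18.2 to 22.5 CPM in cdKO overload and 27.1 to 40.6 CPM in cdKO sham libraries, against 125 to 174 CPM in control overload and 108 to 126 CPM in control sham libraries. Its log2 change was -2.78 ± 0.28 under overload and -1.74 ± 0.27 under sham (cdKO over control, ± SE, edgeR adjusted p = 1.83e-06 and 0.00733). For Yap1 the same comparisons gave -0.85 (edgeR adjusted p = 0.586) and -0.61 (edgeR adjusted p = 0.999). The tags lie near the transcript's 3′ end, which may be outside the floxed part. Incomplete deletion cannot be told apart from this, and neither was tested. Pdgfra was present in every library, at 259 to 900 CPM. It was lower in overload than in sham libraries, without overlap, in both genotypes. The log2 change of overload over sham passed in cdKO (-1.09 ± 0.26, edgeR adjusted p = 0.00620) and not in control (-0.48 ± 0.26, edgeR adjusted p = 0.186).

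The sequences before the start sites of 4 members are shown because the genes stand for the patterns of the overload comparison: Eef1b2 rose with overload in both genotypes, Eif4g1 passed in control and not in cdKO, Eif4a2 fell in cdKO, and Eef2 did not pass. Each is the 250 bases before a start site in RefSeq, build GRCm38.p6, on the plus strand, at chr1:63176581-63176830 for Eef1b2, chr16:20672477-20672726 for Eif4g1, chr16:23107218-23107467 for Eif4a2 and chr10:81176381-81176630 for Eef2. Capitals mark the E-box CACGTG, a palindrome that reads the same on both strands.
Eef1b2: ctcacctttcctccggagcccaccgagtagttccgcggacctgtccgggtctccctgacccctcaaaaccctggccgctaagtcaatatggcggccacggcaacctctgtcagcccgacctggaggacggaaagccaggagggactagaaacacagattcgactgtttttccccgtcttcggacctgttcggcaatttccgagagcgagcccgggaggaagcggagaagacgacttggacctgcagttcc
Eif4g1: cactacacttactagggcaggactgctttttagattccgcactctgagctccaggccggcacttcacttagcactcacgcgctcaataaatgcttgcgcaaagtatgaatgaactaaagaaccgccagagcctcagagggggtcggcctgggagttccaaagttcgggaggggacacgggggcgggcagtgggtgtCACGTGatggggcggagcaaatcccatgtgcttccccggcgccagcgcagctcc
Eif4a2: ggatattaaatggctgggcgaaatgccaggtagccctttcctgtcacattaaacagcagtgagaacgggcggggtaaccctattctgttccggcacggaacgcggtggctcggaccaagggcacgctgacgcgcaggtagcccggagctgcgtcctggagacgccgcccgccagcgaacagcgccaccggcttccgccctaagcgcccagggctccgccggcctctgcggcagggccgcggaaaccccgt
Eef2: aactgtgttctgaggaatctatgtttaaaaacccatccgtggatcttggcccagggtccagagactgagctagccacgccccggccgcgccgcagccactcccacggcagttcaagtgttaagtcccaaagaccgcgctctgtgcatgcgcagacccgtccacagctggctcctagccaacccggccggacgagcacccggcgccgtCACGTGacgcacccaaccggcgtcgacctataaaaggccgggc
The E-box lies 54 bases before the start in Eif4g1 and 43 bases before it in Eef2, and the printed windows of Eef1b2 and Eif4a2 do not hold it. The last 6 bases printed for Eef1b2, 4 for Eif4g1 and 24 for Eif4a2 lie in exons of the GENCODE annotation, and the Eef2 window lies wholly upstream of the gene. The Eif4g1 window stands before a RefSeq start that lies inside the gene as GENCODE draws it, downstream of its first start at 20668313. Over windows of 250 bases before to 50 after a start, 49 of the 66 members were matched and 14 of these held CACGTG (28.6%), compared with 2187 of 27025 genes in the same table (8.09%). The CCAAT box, searched on both strands, was in 17 of the 49 members (34.7%) and in 41.1% of all genes. Of the 19 members that rose with overload in either genotype 15 were matched, and 2 of these held the E-box (13.3%, Eif4g1 and Eif3a). Eef1g, Eif3i, Eif4ebp1 and Eif6, which rose in both genotypes, had no window. The other tested members held it in 10 of 25 matched (40.0%). Those 25 had 37 windows and the 15 had 17, so the chances of a match were unequal. These are matches of letters, given as a description with no test.

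Overload raised more translation factor genes than it lowered in both genotypes. In cdKO progenitors 9 of the 53 tested genes rose and 1 fell, where 6.37% of all tested genes rose and 6.68% fell. In control progenitors 18 of the 53 rose and 2 fell, against 10.6% and 11.0% of all genes. The median log2 change of overload over sham was 0.43 in cdKO and 0.54 in control for these genes, and -0.02 in cdKO and -0.05 in control for all genes. In each genotype 41 of the 53 had a log2 change above 0, a direction that 48.7% of all genes took in cdKO and 47.8% in control. Groups did not overlap for 19 members that were higher and 2 that were lower with overload in cdKO (15.4% and 14.7% of all genes), and for 23 and 3 in control (18.0% and 18.9%). Together the 66 genes took 0.757 ± 0.0611% of counts in cdKO overload and 0.610 ± 0.0303% in cdKO sham libraries. They took 0.887 ± 0.109% in control overload and 0.706 ± 0.0880% in control sham libraries (SD, n = 3 each). In such bulk samples a change in the cells sorted and a change in RNA per cell cannot be told apart.

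**Figure D1:**
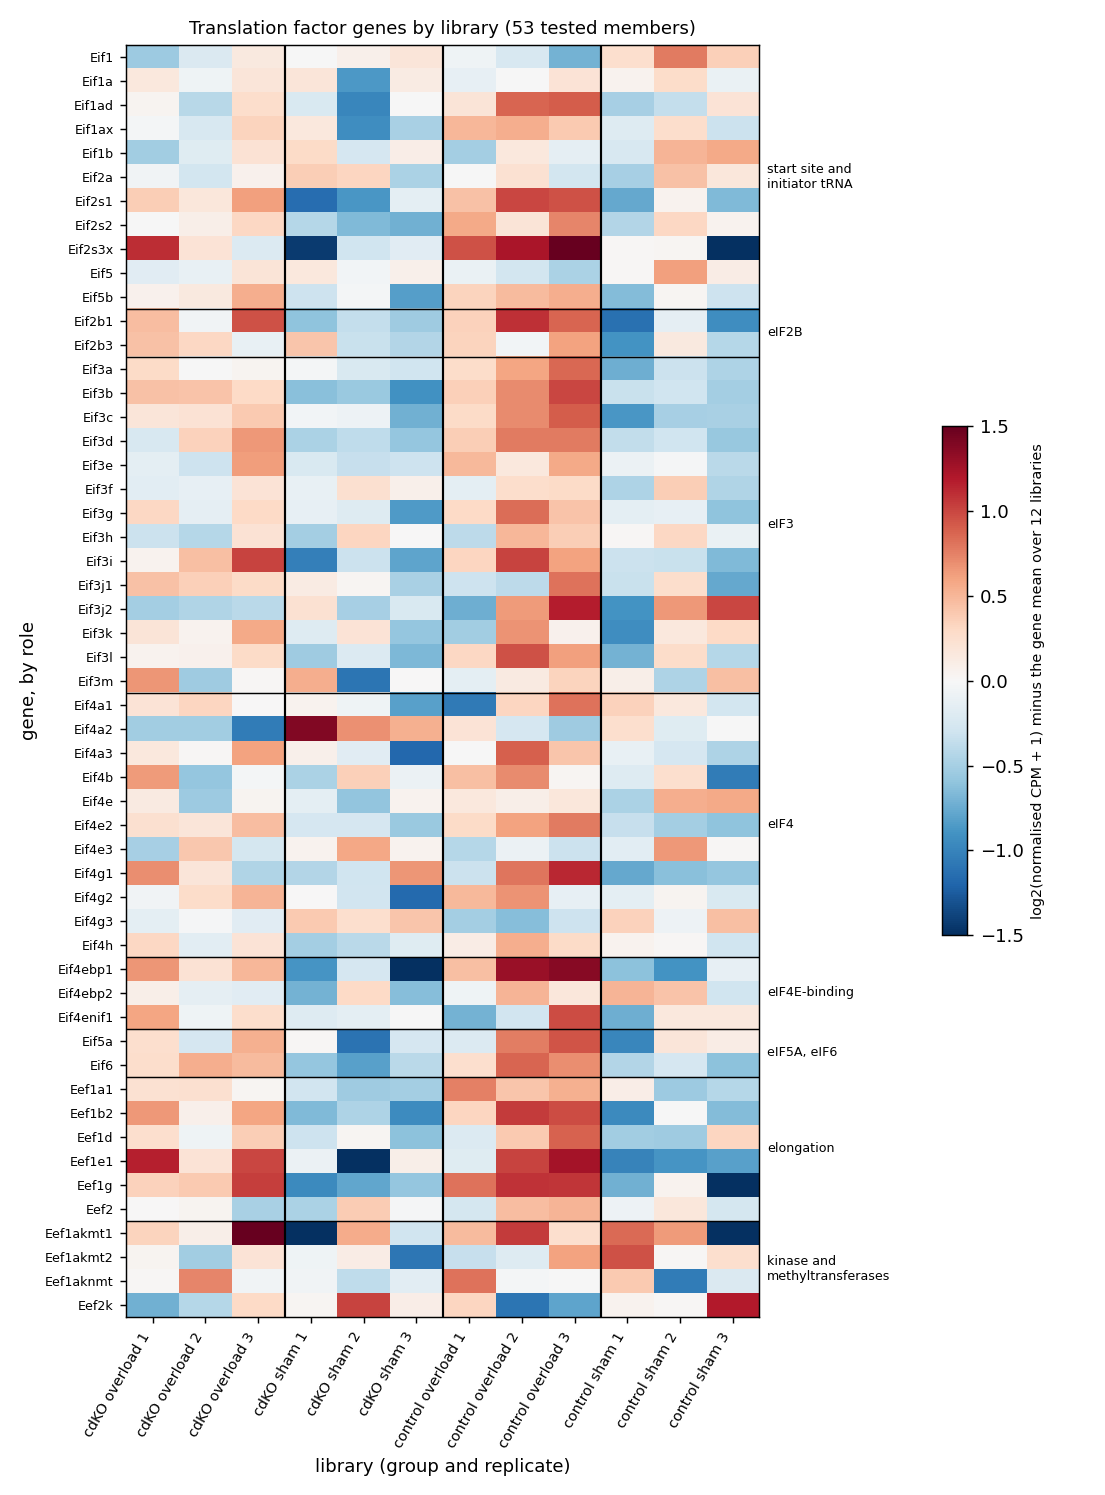
Level of each of the 53 tested translation factor genes (rows, by role) in the 12 libraries (columns), as log2(normalised CPM + 1) minus the gene's mean over libraries, with colours saturating at the ends of the bar. Red is above and blue below the gene's mean: most rows are redder in the overload libraries of both genotypes, and Eif4a2 is reddest in cdKO sham.

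The number of genes past the threshold rests on few libraries. In cdKO it was 3 genes higher without cdKO overload replicate 1 or without replicate 3, 5 without cdKO sham replicate 1 and 4 without cdKO sham replicate 2. The control count was 7 higher and 0 lower with each library's Y-linked share as a covariate, and 4 higher and 0 lower without control overload replicate 2 and control sham replicate 3. Genes of the Y chromosome were at 71.6 and 87.5 CPM of all counts in control overload replicates 2 and 3, and at 124 to 315 CPM in the other libraries. In the same 2 libraries the translation factor genes took 0.957% and 0.942% of counts, the highest shares of the 12 libraries. All 12 libraries held counts from the Y chromosome (76 to 276) and from the X-linked RNA Xist (2 to 204). What these say of the animals' sex or of pooling was not tested. Eef1g, Eif3a and Eif3c passed in control both with this covariate and without control overload replicate 2 and control sham replicate 3. The control rises of Eif2b1, Eif3b, Eif3d, Eif3g, Eif3i, Eif3l, Eif4e2, Eif4g1, Eif5b and Eif6 were lost under both (edgeR adjusted p = 0.0519 to 0.401). That of Eif4ebp1 was lost with the covariate (edgeR adjusted p = 0.139). Those of Eef1a1, Eef1b2, Eef1e1 and Eif2s1 were lost without the 2 libraries (edgeR adjusted p = 0.0516 to 0.0842). In cdKO the Y-linked covariate ended the calls of Eif2s2 and Eef1e1 (edgeR adjusted p = 0.0816 and 0.0668). With no filter on low counts the calls of Eif2s2, Eif3b and Eif4ebp1 in cdKO and of Eif1, Eif3g, Eif3l, Eif4g3 and Eif5b in control were lost (edgeR adjusted p = 0.0507 to 0.495). With DESeq2 those of Eef1e1 and Eif4ebp1 in cdKO and of Eif3g in control were lost (DESeq2 adjusted p = 0.0615 to 0.0763). Summed markers of other cells moved with load as well: pericyte and smooth muscle markers were at 37.1 to 59.5 CPM in cdKO overload and 124 to 181 CPM in cdKO sham. They were at 22.2 to 75.8 CPM in control overload and 137 to 201 CPM in control sham libraries. Endothelial markers were at 25.8 to 49.4 CPM in cdKO overload, 55.0 to 137 CPM in cdKO sham, 14.9 to 84.4 CPM in control overload and 99.8 to 139.6 CPM in control sham. Muscle stem cell markers went with the translation factor genes, at 78.0 to 114 CPM in cdKO overload, 54.1 to 66.0 CPM in cdKO sham, 72.7 to 93.4 CPM in control overload and 45.0 to 64.3 CPM in control sham, without overlap in either genotype. Of the 5 markers 2 were tested. Vcam1 rose in both genotypes (1.24 ± 0.30 in cdKO and 1.44 ± 0.32 in control, edgeR adjusted p = 0.00706 and 0.00196). The other tested marker fell in control and did not pass in cdKO. The median log2 change of the 2 was 0.25 in cdKO and 0.05 in control. Erythroid markers were at 0 to 1.12 CPM in cdKO overload and 3.67 to 129.5 CPM in cdKO sham, and at 12.3 to 281 CPM in control overload and 0 to 4.50 CPM in control sham. The 7 progenitor markers summed to 75030 to 83420 CPM in cdKO overload and 81276 to 89577 CPM in cdKO sham, which overlapped, and to 50989 to 72918 CPM in control overload and 75205 to 92955 CPM in control sham, which did not. Of the 7 progenitor markers, 2 rose and 3 fell with overload in each genotype. No marker of these 5 lists was at 0 in all libraries, and their part in the results was not tested.

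The 8 genes that rose in both genotypes were Eef1b2, Eef1e1, Eef1g, Eif2s1, Eif3b, Eif3i, Eif4ebp1 and Eif6. They are 8 of the 9 genes that rose in cdKO and 8 of the 18 that rose in control. The 2 comparisons share no library, but a single fit over all 12 libraries gave both, with a shared estimate of the spread. The same overlap over all genes was not counted. The 8 are therefore not shown to be particular to this set. In cdKO the other gene was Eif2s2. In control the other 10 were Eef1a1, Eif2b1, Eif3a, Eif3c, Eif3d, Eif3g, Eif3l, Eif4e2, Eif4g1 and Eif5b. Passing in a single genotype does not show that the response differed: in the test of the difference itself no translation factor gene passed.

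Among the factors that carry the initiator tRNA and choose the start codon, 11 genes were tested. Of these 2 rose in cdKO and none fell, and 2 rose and 1 fell in control. Over all tested genes 6.37% rose and 6.68% fell in cdKO, and 10.6% and 11.0% in control. With 11 genes the control counts are near those shares. Eif2s1 encodes the alpha subunit of eIF2, whose phosphorylation slows initiation under stress. It was at 80.3, 70.2 and 95.4 CPM in cdKO overload, against 27.5, 33.3 and 56.1 CPM in cdKO sham libraries. In control overload it was at 84.4, 125 and 121 CPM, against 36.0, 64.3 and 38.9 CPM in control sham. All overload libraries lay above all sham libraries, and the log2 changes were 1.10 ± 0.30 in cdKO (edgeR adjusted p = 0.0181) and 1.21 ± 0.30 in control (edgeR adjusted p = 0.00487). The cdKO call was lost without cdKO overload replicate 1 or 3 or cdKO sham replicate 1 or 2 (edgeR adjusted p = 0.0590 to 0.101).

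Eif2s2, the beta subunit, was at 152 ± 17.7 CPM in cdKO overload and 90.7 ± 10.5 CPM in cdKO sham, and at 198 ± 36.7 CPM in control overload and 138 ± 35.0 CPM in control sham (SD, n = 3 each). Its log2 change passed in cdKO (0.75 ± 0.25, edgeR adjusted p = 0.0456) and not in control (0.50 ± 0.24, edgeR adjusted p = 0.147). That cdKO call held in 10 of the 20 alternatives tried and was lost without any 1 of cdKO overload 1, cdKO overload 3, the 3 cdKO sham libraries, control overload 3 or control sham 3 (edgeR adjusted p = 0.0543 to 0.192). Eif2s3x, the X-linked gamma subunit, had only 90 counts in all, and its log2 change of 1.72 ± 0.73 in control did not pass (edgeR adjusted p = 0.0932). Eif5b encodes the GTPase that joins the ribosomal subunits, and its exons overlap those of Rev1 on the other strand. It rose by 0.73 ± 0.25 in control (edgeR adjusted p = 0.0406) and was at 0.62 ± 0.25 in cdKO (edgeR adjusted p = 0.104). The control call was lost without control overload 2 or 3 or control sham 1 or 3 (edgeR adjusted p = 0.0902 to 0.182).

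Eif1, which guards the fidelity of start codon choice, went the other way from eIF2. It was at 1366, 1205 and 872 CPM in control overload libraries, against 1696, 2455 and 1827 CPM in control sham libraries. The groups did not overlap, and the gene fell in control by 0.80 ± 0.26 on the log2 scale (edgeR adjusted p = 0.0290). In cdKO it was at 981, 1225 and 1585 CPM with overload and 1417, 1510 and 1620 CPM with sham, an overlap, and the log2 change of -0.26 ± 0.26 did not pass (edgeR adjusted p = 0.568). The control call was lost without control overload 2 or 3 or control sham 2 or 3 (edgeR adjusted p = 0.0737 to 0.186). Named processed pseudogenes of Eif1 hold at most 7 counts each, but reads split among near-identical copies cannot be recovered from the counts. Eif5, which makes eIF2 hydrolyse its GTP, had log2 changes of -0.08 ± 0.23 in cdKO and -0.56 ± 0.24 in control (edgeR adjusted p = 0.875 and 0.0891).

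Of the 5 subunits of eIF2B, the exchange factor that recharges eIF2, 2 were tested. Eif2b1, the alpha subunit, was at 35.5, 24.7 and 50.5 CPM in cdKO overload, against 16.5, 19.8 and 17.4 CPM in cdKO sham. With control overload it was at 32.7, 55.8 and 47.9 CPM, against 11.3, 23.2 and 13.0 CPM in control sham. The groups did not overlap in either genotype, but the gene passed in control alone (1.45 ± 0.38, edgeR adjusted p = 0.00762), with 1.03 ± 0.37 in cdKO (edgeR adjusted p = 0.0648). Without cdKO overload replicate 2 Eif2b1 passed in cdKO as well (1.29, edgeR adjusted p = 0.0234). Eif2b3, the gamma subunit, had log2 changes of 0.32 ± 0.47 in cdKO and 0.60 ± 0.50 in control. Eif2b2, Eif2b4 and Eif2b5 had 103, 48 and 75 counts over all libraries and were not tested.

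Of the subunits of eIF3, the initiation factor with the most subunits, 14 were tested, and all 14 had a log2 change above 0 in control and 11 of 14 did in cdKO, with medians of 0.44 in cdKO and 0.68 in control. In cdKO 2 rose, and in control 7 rose, where 6.37% of all tested genes rose in cdKO and 10.6% in control. A log2 change above 0 was found for 48.7% of all genes in cdKO and 47.8% in control. Eif3i, a beta-propeller subunit that sits beside eIF3b and eIF3g, was at 128, 170 and 250 CPM in cdKO overload, against 60.5, 98.9 and 71.5 CPM in cdKO sham. In control overload it was at 155, 251 and 189 CPM, against 99.1, 98.4 and 77.8 CPM in control sham. Overload and sham libraries were apart in both genotypes, and Eif3i rose by 1.23 ± 0.28 in cdKO and 1.11 ± 0.28 in control (edgeR adjusted p = 0.00435 and 0.00531). The cdKO call just failed without cdKO overload replicate 3 (edgeR adjusted p = 0.0598). The control call was lost with the Y-linked covariate (edgeR adjusted p = 0.150). It was also lost without control overload 2 and control sham 3 together (edgeR adjusted p = 0.134).

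Eif3b, the scaffold of the same module, was at 49.2 ± 2.78 CPM in cdKO overload and 22.7 ± 2.99 CPM in cdKO sham, and at 61.9 ± 13.8 CPM in control overload and 28.4 ± 2.21 CPM in control sham (SD, n = 3 each). It rose by 1.09 ± 0.30 and 1.11 ± 0.30 on the log2 scale in cdKO and control (edgeR adjusted p = 0.0171 and 0.00846). The cdKO call was lost without cdKO overload 1 or 3 or cdKO sham 2 or 3 (edgeR adjusted p = 0.0502 to 0.0665). Eif3g, an RNA-binding subunit, passed in control (0.82 ± 0.28, edgeR adjusted p = 0.0391) and was at 0.52 ± 0.28 in cdKO (edgeR adjusted p = 0.241). Its control call failed without control overload 2 or 3 or any 1 of the 3 control sham libraries (edgeR adjusted p = 0.0522 to 0.193), with no filter on low counts (edgeR adjusted p = 0.0906) and with DESeq2 (DESeq2 adjusted p = 0.0615).

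The core subunits Eif3a and Eif3c passed in control and not in cdKO, and the difference between the genotypes did not pass (interaction, edgeR adjusted p = 0.925 and 0.927). Eif3a (chr19:60761117-60790658, minus strand, GRCm38), on which the rest of the complex is assembled, was at 459, 374 and 386 CPM in cdKO overload, against 367, 321 and 303 CPM in cdKO sham. With control overload it was at 455, 567 and 684 CPM, against 225, 299 and 272 CPM in control sham. Overload lay above sham in both genotypes without overlap, but by little in cdKO. The log2 changes were 0.30 ± 0.23 in cdKO (edgeR adjusted p = 0.446) and 1.10 ± 0.24 in control (edgeR adjusted p = 0.00176). Eif3c (chr7:126546455-126566411, minus strand) was at 161, 164 and 185 CPM in cdKO overload, against 137, 133 and 85.0 CPM in cdKO sham. It was at 172, 232 and 266 CPM in control overload, against 76.6, 99.8 and 100.4 CPM in control sham. Again no overload library fell among the sham libraries, and the changes were 0.51 ± 0.24 in cdKO (edgeR adjusted p = 0.175) and 1.28 ± 0.25 in control (edgeR adjusted p = 0.000766). Both control calls held in each of the 20 alternatives tried.

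Eif3d, a subunit with its own cap-binding activity in human cells, passed in control (1.07 ± 0.30, edgeR adjusted p = 0.0115) and was at 0.80 ± 0.30 in cdKO (edgeR adjusted p = 0.0738). Its exons overlap the antisense gene Gm17638, and the 2 strands cannot be separated here. Eif3l, a subunit at the edge of the complex, passed in control (0.86 ± 0.28, edgeR adjusted p = 0.0268) and not in cdKO (0.58 ± 0.28, edgeR adjusted p = 0.177). The Eif3l call failed without control overload 2 or control sham 1 or 3 (edgeR adjusted p = 0.0843 to 0.150). The subunits that passed nowhere were Eif3e, Eif3f, Eif3h, Eif3j1, Eif3j2, Eif3k and Eif3m, with log2 changes from -0.32 to 0.45 in cdKO and from 0.12 to 0.55 in control. Eif3j1 and Eif3j2 are near-identical copies, so their split is uncertain.

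**Figure D2:**
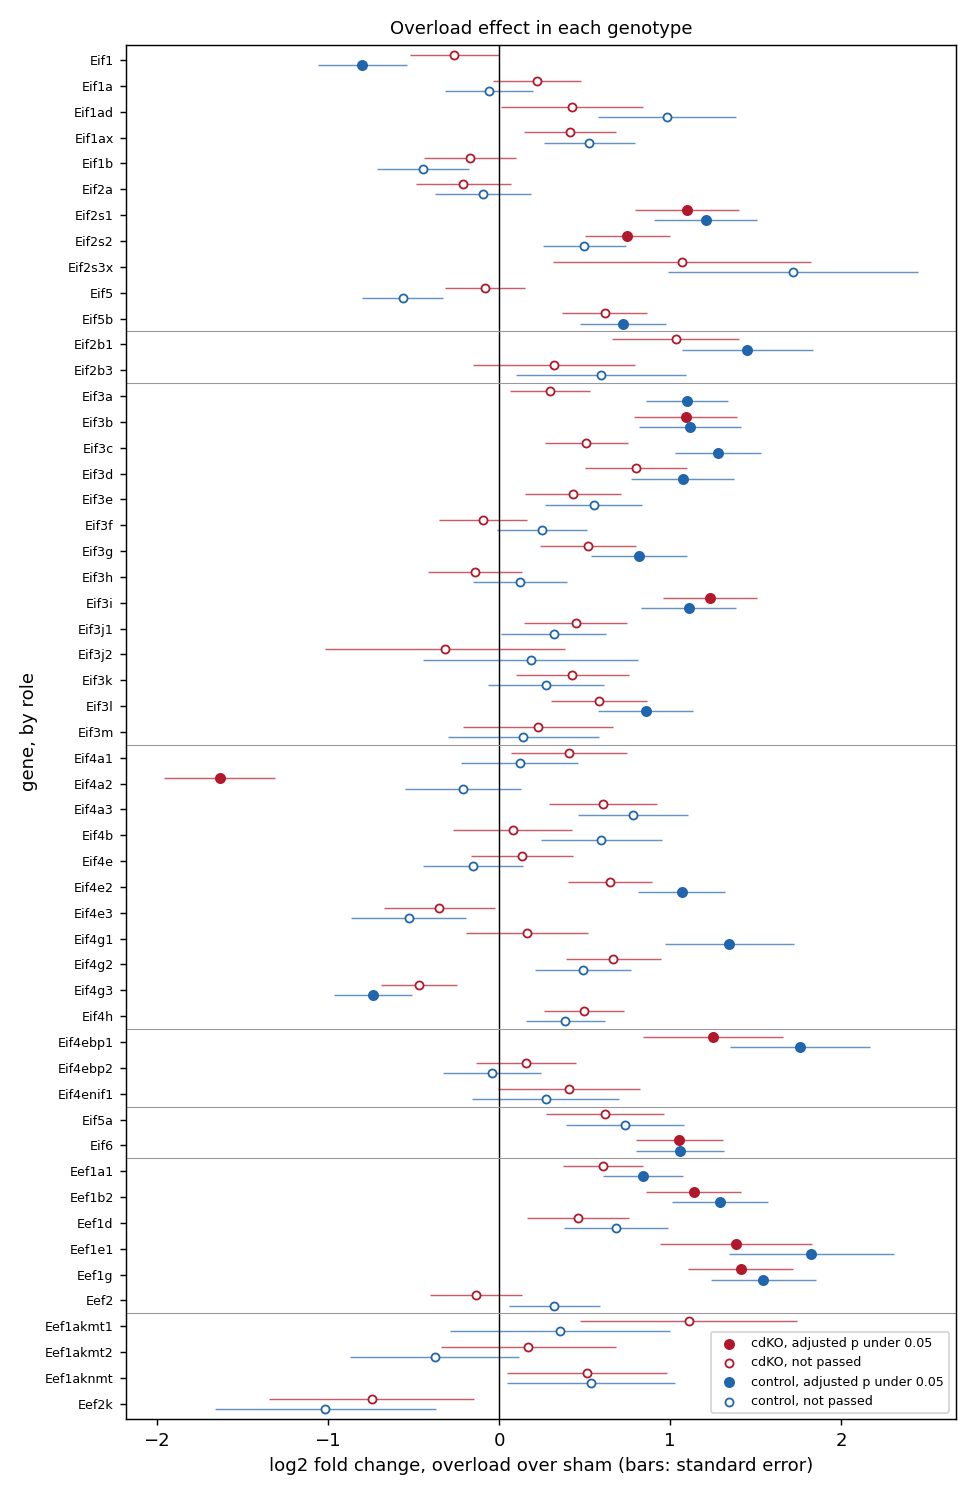
Log2 fold change of overload over sham (x axis, bars are the standard error) for each tested gene, in cdKO (red) and control (blue), ordered by role. Filled points passed at an adjusted p under 0.05: 9 red and 18 blue lie right of 0, and Eif4a2 in cdKO at -1.63 stands farthest to the left.

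Of 11 tested cap-binding factors and helicases, none rose and 1 fell in cdKO, and 2 rose and 1 fell in control, where 6.37% of all genes rose and 6.68% fell in cdKO and 10.6% and 11.0% in control. Eif4g1 (chr16:20668313-20692884, plus strand, GRCm38), the main scaffold between eIF4E and eIF4A, was at 182, 127 and 82.0 CPM in cdKO overload, against 82.5, 90.6 and 178 CPM in cdKO sham, and these groups overlapped. It was at 89.6, 197 and 247 CPM in control overload, against 65.3, 72.5 and 74.5 CPM in control sham, which did not overlap. The log2 change was 0.16 ± 0.36 in cdKO (edgeR adjusted p = 0.828) and 1.35 ± 0.37 in control (edgeR adjusted p = 0.0143). The control call failed without control overload replicate 3 or control sham replicate 1 (edgeR adjusted p = 0.0668 and 0.0603). As printed above, the window before an internal start of this gene holds an E-box.

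Eif4g3, another scaffold of the same family, had the opposite direction. It was at 141, 153 and 138 CPM in cdKO overload, against 205, 185 and 209 CPM in cdKO sham. In control overload it was at 109, 100 and 125 CPM, against 198, 148 and 214 CPM in control sham. Every overload library was below every sham library of its genotype, and the gene fell in control (-0.73 ± 0.23, edgeR adjusted p = 0.0224) with -0.47 ± 0.22 in cdKO (edgeR adjusted p = 0.172). The control call failed without control overload 2 or control sham 1 or 3 (edgeR adjusted p = 0.0945 to 0.144). Eif4g2, a related scaffold that does not bind eIF4E, had log2 changes of 0.67 ± 0.28 in cdKO and 0.49 ± 0.28 in control (edgeR adjusted p = 0.116 and 0.216).

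The member that fell in cdKO was Eif4a2 (chr16:23107444-23114136, plus strand, GRCm38). It encodes a paralog of the main helicase Eif4a1 and has been linked to repression by microRNAs. It was at 24.7, 24.7 and 16.8 CPM in cdKO overload, against 95.3, 58.3 and 52.2 CPM in cdKO sham. Control overload libraries had 41.4, 29.9 and 24.5 CPM, against 42.8, 31.4 and 35.6 CPM in control sham. The cdKO sham libraries were above all others, the cdKO overload libraries reached only the lowest of the control overload libraries, and the control groups overlapped. The log2 change was -1.63 ± 0.32 in cdKO (edgeR adjusted p = 0.00159) and -0.21 ± 0.34 in control (edgeR adjusted p = 0.692). The cdKO call held in each of the 20 alternatives, with log2 changes from -1.78 to -1.35. Between genotypes Eif4a2 differed by 0.91 ± 0.33 in sham and -0.51 ± 0.34 under overload, and neither passed (edgeR adjusted p = 0.999 and 0.829). Small nucleolar RNA genes and an end of Rfc4 share exonic bases with Eif4a2, and its total was 329 counts.

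Eif4a1 itself spread widely among libraries, from 258 to 948 CPM within control overload alone, and its log2 changes were 0.41 ± 0.34 in cdKO and 0.12 ± 0.34 in control. Eif4e2, a cap-binding protein that competes with eIF4E and represses its targets, was at 92.0 ± 9.98 CPM in cdKO overload and 58.4 ± 7.01 CPM in cdKO sham, and at 111 ± 18.7 CPM in control overload and 53.0 ± 5.07 CPM in control sham (SD, n = 3 each). It rose in control (1.07 ± 0.25, edgeR adjusted p = 0.00365) and was at 0.65 ± 0.25 in cdKO (edgeR adjusted p = 0.0819). Eif4e, the cap-binding protein of general initiation, did not pass in either genotype. Its log2 change was 0.14 in cdKO with a 95% interval of -0.48 to 0.75, and -0.15 in control with an interval of -0.75 to 0.45.

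Of the proteins that bind eIF4E, Eif4ebp1 rose in both genotypes. It encodes 4E-BP1, which holds eIF4E off the scaffold until mTORC1 phosphorylates it. It was at 34.0, 24.7 and 30.3 CPM in cdKO overload, against 11.0, 17.7 and 5.80 CPM in cdKO sham. With control overload it was at 29.3, 53.2 and 56.0 CPM, against 13.5, 10.9 and 19.4 CPM in control sham. No overload library fell within the sham range, and the log2 changes were 1.25 ± 0.41 in cdKO (edgeR adjusted p = 0.0432) and 1.76 ± 0.41 in control (edgeR adjusted p = 0.00299). The cdKO call held in 10 of 20 alternatives: it was lost with DESeq2 (DESeq2 adjusted p = 0.0763) and without cdKO overload 1 or 3, cdKO sham 1 or 3, control overload 3 or control sham 1 or 3 (edgeR adjusted p = 0.0547 to 0.164). The paralog Eif4ebp2 was at 0.16 in cdKO (95% interval -0.45 to 0.76) and -0.04 in control (-0.63 to 0.55). Eif4ebp3 had 0 counts in all 12 libraries. For counting error only, this allows at most 1.92 CPM of all counts in the deepest and 8.92 in the shallowest. Its exons overlap those of AC115631.1 on the same strand. Reads there may have been left unassigned, so the 0 counts may not bound its level.

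Eif6 keeps the large ribosomal subunit from joining the small one too early and takes part in making that subunit. It was at 95.8, 117 and 111 CPM in cdKO overload, against 53.2, 44.8 and 59.9 CPM in cdKO sham. In control overload it was at 94.8, 147 and 130 CPM, against 58.6, 67.0 and 51.8 CPM in control sham. The lowest overload library was above the highest sham library in each genotype, and the gene rose by 1.05 ± 0.25 in cdKO and 1.06 ± 0.26 in control (edgeR adjusted p = 0.00742 and 0.00403). Leaving out cdKO sham replicate 2 ended the cdKO call (edgeR adjusted p = 0.0632), and Gm16098 overlaps Eif6 on the other strand. Eif5a, the hypusine-bearing factor that helps the ribosome past difficult peptide bonds, did not pass, with log2 changes of 0.62 ± 0.35 in cdKO and 0.73 ± 0.35 in control (edgeR adjusted p = 0.266 and 0.137). Without control overload replicate 1 Eif5a passed in control (1.04, edgeR adjusted p = 0.0166). Its paralog Eif5a2 had 77 counts and was not tested.

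Of the genes grouped by name as elongation factors 3 of 6 tested rose in cdKO and 4 of 6 in control, and none fell. Both counts include Eef1e1, a member of the group by name. Over all tested genes 6.37% rose and 6.68% fell in cdKO, and 10.6% and 11.0% in control. Eef1g (chr19:8967041-8978479, plus strand, GRCm38), the gamma subunit of the eEF1B exchange complex, was at 114, 118 and 185 CPM in cdKO overload, against 45.8, 52.1 and 59.9 CPM in cdKO sham. With control overload it was at 159, 191 and 190.3 CPM, against 54.0, 93.0 and 25.9 CPM in control sham. The groups were well apart in both genotypes, and the log2 changes were 1.41 ± 0.31 in cdKO (edgeR adjusted p = 0.00325) and 1.54 ± 0.30 in control (edgeR adjusted p = 0.000739). Among the genes that rose, Eef1g is the one whose call held in both genotypes in each of the 20 alternatives.

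Eef1b2 (chr1:63176825-63180486, plus strand, GRCm38) encodes a subunit of the same complex that carries out the exchange. It was at 542, 365 and 523 CPM in cdKO overload, against 218, 249.9 and 179.8 CPM in cdKO sham. It was at 432, 719 and 684 CPM in control overload, against 178, 346 and 220 CPM in control sham. No library of one load lay within the range of the other, and the gene rose by 1.14 ± 0.28 in cdKO and 1.29 ± 0.28 in control (edgeR adjusted p = 0.00791 and 0.00160). The cdKO call was at the threshold without cdKO overload replicate 1 (edgeR adjusted p = 0.0506), and Ndufs1 overlaps the gene on the other strand. Eef1d, another exchange subunit, had log2 changes of 0.46 ± 0.30 in cdKO and 0.69 ± 0.30 in control, which did not pass (edgeR adjusted p = 0.335 and 0.108). It passed in control without control overload replicate 1 or without control sham replicate 3 (edgeR adjusted p = 0.0183 and 0.0421).

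Eef1e1, named with this family but better known as a part of the multi-tRNA synthetase complex, was at 54.1, 27.3 and 48.3 CPM in cdKO overload, against 22.0, 6.25 and 25.1 CPM in cdKO sham. In control overload it was at 20.7, 48.7 and 57.2 CPM, against 11.3, 12.3 and 13.0 CPM in control sham. The groups were apart, narrowly so in cdKO. It rose by 1.38 ± 0.44 in cdKO and 1.83 ± 0.48 in control (edgeR adjusted p = 0.0388 and 0.00806). The cdKO call was lost without cdKO overload 1 or 3, cdKO sham 1 or 2, or control sham 1 or 3 (edgeR adjusted p = 0.0534 to 0.259), with the Y-linked covariate (edgeR adjusted p = 0.0668) and with DESeq2 (DESeq2 adjusted p = 0.0670). The log2 change was 0.84 without cdKO sham replicate 2, the library at 6.25 CPM.

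Eef1a1, the carrier of aminoacyl-tRNA, was at 201 ± 16.5 CPM in cdKO overload and 132 ± 13.0 CPM in cdKO sham, and at 267 ± 32.0 CPM in control overload and 149 ± 37.5 CPM in control sham (SD, n = 3 each). It rose in control (0.84 ± 0.23, edgeR adjusted p = 0.0114) and was at 0.61 ± 0.23 in cdKO (edgeR adjusted p = 0.0845). The control call failed without control sham 2 or 3 (edgeR adjusted p = 0.0658 and 0.0507). Eef1a1 has many near-identical pseudogenes, so reads may have been lost in counting and its level is uncertain. Its muscle and nerve paralog Eef1a2 had 3 counts in all libraries together. Eef2, the translocase, did not pass. Its log2 change was -0.13 in cdKO (95% interval -0.68 to 0.41) and 0.32 in control (-0.23 to 0.87).

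None of the 4 tested modifiers of elongation factors passed in either genotype. Eef2k, the kinase that switches eEF2 off, had 97 counts and log2 changes of -0.74 ± 0.60 in cdKO and -1.01 ± 0.64 in control. Eef1akmt1, a lysine methyltransferase of eEF1A, ranged from 15.6 to 51.6 CPM in cdKO overload and 3.67 to 21.9 CPM in cdKO sham libraries, and its change of 1.11 ± 0.64 did not pass (edgeR adjusted p = 0.284).

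**Figure D3:**
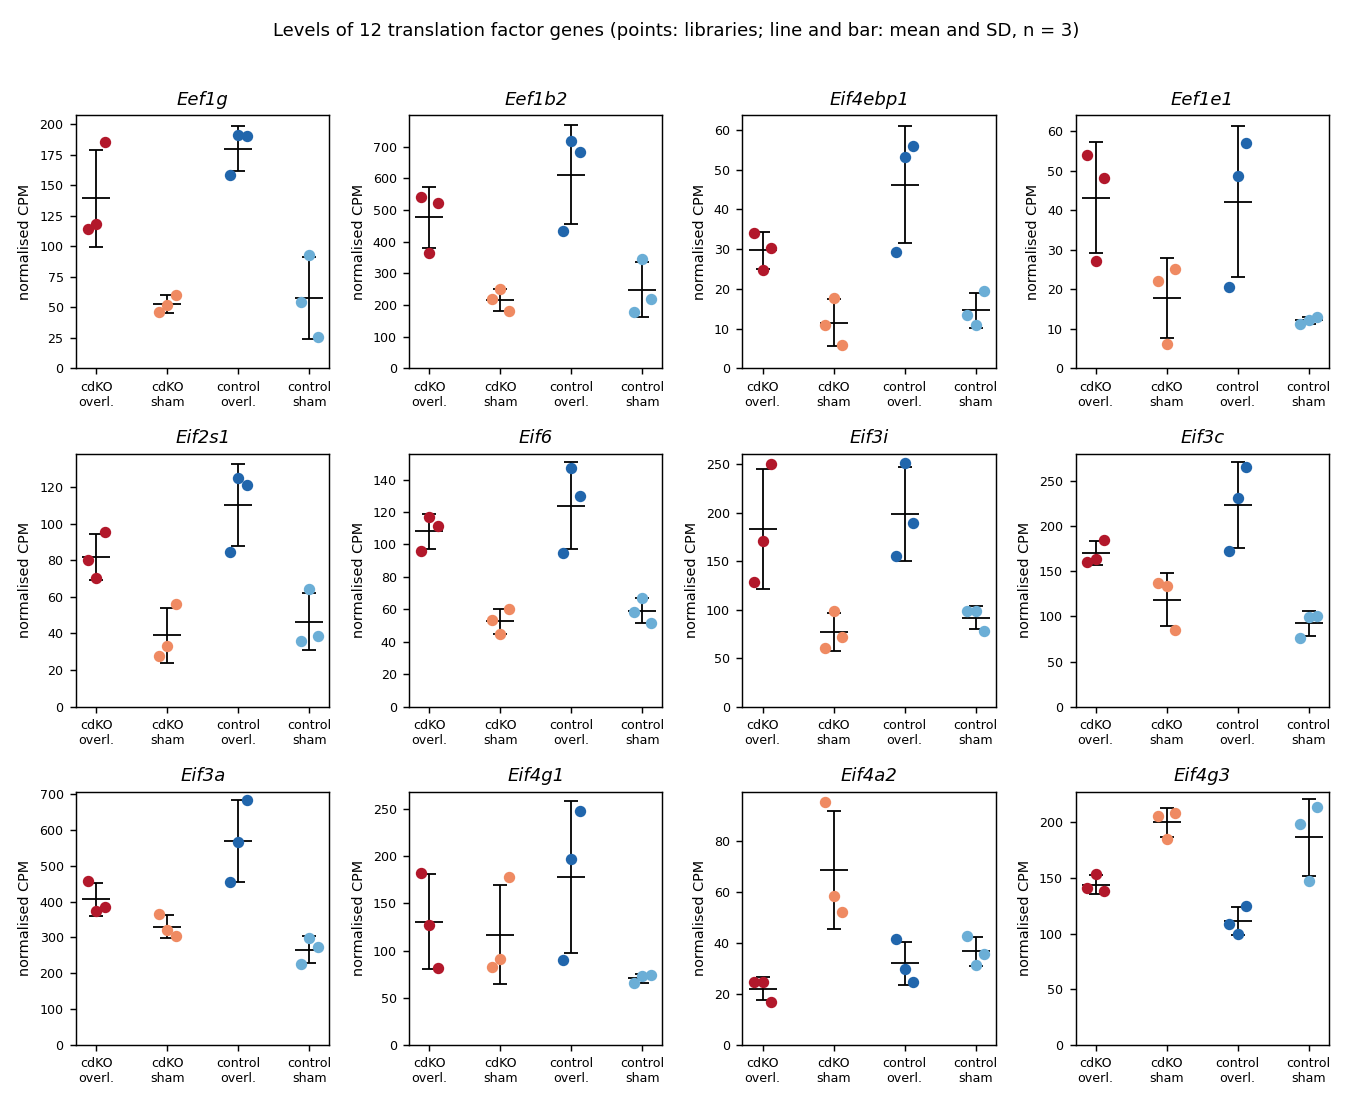
Normalised CPM (y axis, starting at 0) of 12 translation factor genes in each library, by group, with the group mean as a line and the SD as a bar (n = 3). In Eef1g, Eef1b2, Eif4ebp1, Eef1e1, Eif2s1, Eif6 and Eif3i overload points stand above sham points in both genotypes, and in Eif4a2 the cdKO sham points stand above the rest.

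The comparison of cdKO with control asks whether loss of the co-activators changed these genes at a given load. The groups compared here are the same libraries as above. Under overload 0 of 53 members passed in edgeR, where 0.0368% of all genes did. At an unadjusted p under 0.05 there were 0 higher and 1 lower (Eif3a), where 3.73% of all genes were higher and 3.25% lower, and DESeq2 also called 0. Most members were a little lower in cdKO: 42 of 53 had a log2 change below 0, as had 47.0% of all genes, and the median was -0.24 for members and 0.03 for all genes. With the Y-linked covariate the members' median was -0.08. Groups did not overlap for 1 member that was higher and 3 that were lower (5.38% and 5.31% of all genes). Eif4ebp1 was at 29.7 ± 4.68 CPM in cdKO overload and 46.2 ± 14.7 CPM in control overload (SD, n = 3 each), a log2 difference of -0.67 with a 95% interval of -1.37 to 0.03. For Eef1b2 the difference was -0.36 with an interval of -0.92 to 0.19, and for Eif6 it was -0.21 with an interval of -0.69 to 0.27. The intervals reach both sides of 0, so a lack of difference is not shown either.

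In sham muscle 0 of 53 members passed in edgeR, where 0.0123% of all genes did, and DESeq2 also called 0. At an unadjusted p under 0.05, Eif4a2 was the 1 member that was higher in cdKO and Eif2s2 the 1 that was lower, where 2.13% of all genes were higher and 1.96% lower. Of the 53 members 36 had a log2 change below 0, as had 48.6% of all genes, and the medians were -0.16 for members and 0.01 for all genes. Eif2s2 was at 90.7 ± 10.5 CPM in cdKO sham and 138 ± 35.0 CPM in control sham (SD, n = 3 each), a difference of -0.62 with an interval of -1.15 to -0.10 that did not pass over all genes (edgeR adjusted p = 0.999). Groups did not overlap for 3 members that were higher, Eif3a, Eif4a2 and Eif4g1, and for 2 that were lower, Eif1 and Eif3b (5.44% and 4.45% of all genes).

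Whether overload acted differently in cdKO was tested by the interaction, the overload change in cdKO minus that in control. It passed for 0 of 53 members and for 0% of all genes in edgeR, and DESeq2 also called 0 members. At an unadjusted p under 0.05 there were 0 members above 0 and 4 below it, where 2.60% of all genes lay above and 2.63% below. The 4 were Eif4a2 (-1.42 ± 0.47), Eif4g1 (-1.18 ± 0.52), Eif3a (-0.80 ± 0.33) and Eif3c (-0.77 ± 0.35), with edgeR adjusted p from 0.732 to 0.927. For genes that rose in both genotypes the differences were smaller than their standard errors: -0.13 for Eef1g (95% interval -1.02 to 0.76), 0.12 for Eif3i (-0.68 to 0.93) and -0.0039 for Eif6 (-0.83 to 0.82). These genes were picked because both overload changes passed in the same fit. That choice itself favours small differences, so an equal response is not shown. The median interaction was -0.11 for members and 0.02 for all genes. It was 0.072 with the Y-linked covariate and 0.0074 without control overload replicate 2 and control sham replicate 3.

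**Figure D4:**
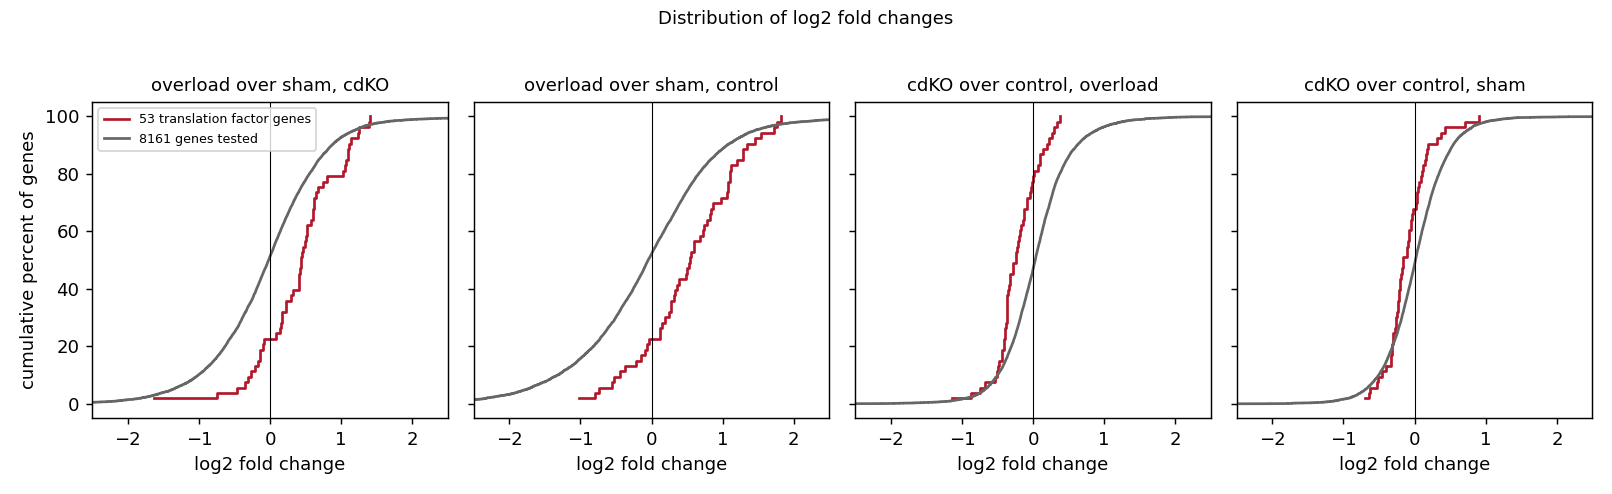
Cumulative percent of genes (y axis) by log2 fold change (x axis, genes beyond the axis range are not drawn) for the 53 tested translation factor genes (red) and all 8161 tested genes (grey) in 4 comparisons. The red curve lies right of the grey one for overload over sham in cdKO and in control, with medians of 0.43 and 0.54, and for cdKO over control it is steeper and lies left of the grey one around the middle.

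Genes that act beside the translation factors were counted from lists of names. Of the cytosolic tRNA synthetases, which charge tRNAs with amino acids, 8 of 21 tested rose in cdKO and 14 of 21 in control, and none fell, where 6.37% of all genes rose and 6.68% fell in cdKO and 10.6% and 11.0% in control. Their median log2 changes were 0.87 in cdKO and 1.25 in control. Gars, which charges glycine tRNA, was at 107 ± 48.7 CPM in cdKO overload and 38.0 ± 4.45 CPM in cdKO sham, and at 163 ± 47.8 CPM in control overload and 34.9 ± 12.3 CPM in control sham (SD, n = 3 each). It rose by 1.50 ± 0.34 in cdKO and 2.31 ± 0.36 in control (edgeR adjusted p = 0.00551 and 6.99e-05). Eprs, which charges both glutamate and proline tRNA, rose by 0.92 ± 0.25 and 1.58 ± 0.26 in cdKO and control (edgeR adjusted p = 0.0167 and 0.000105).

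Of 22 tested genes for mRNA-end binding, termination and recycling, 3 rose and 2 fell in cdKO, and 7 rose and none fell in control. Over all tested genes 6.37% rose and 6.68% fell in cdKO, and 10.6% rose and 11.0% fell in control. Abce1, which splits ribosomes after termination, rose by 1.01 ± 0.28 in cdKO and 1.12 ± 0.27 in control (edgeR adjusted p = 0.0171 and 0.00435), and Gspt1, the release factor eRF3, rose in both as well (1.04 ± 0.28 and 0.80 ± 0.28, edgeR adjusted p = 0.0153 and 0.0419). Denr, which with Mcts1 restarts ribosomes after short reading frames, rose in control (1.63 ± 0.31, edgeR adjusted p = 0.000620) and was at 0.78 ± 0.32 in cdKO (edgeR adjusted p = 0.109). Pdcd4, an inhibitor of the helicase eIF4A, fell in cdKO (-1.15 ± 0.30, edgeR adjusted p = 0.0116) and was at -0.76 ± 0.30 in control (edgeR adjusted p = 0.0738).

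The genes of mTORC1 and its regulators were measured here as RNA and not as activity. Of 21 tested, 1 rose in cdKO, and 2 rose and 1 fell in control, with median log2 changes of -0.06 in cdKO and 0.28 in control. These counts are near or under the shares of all genes, 6.37% higher in cdKO and 10.6% higher and 11.0% lower in control. Lamtor3, a part of the lysosomal anchor of mTORC1, rose in cdKO (0.998 ± 0.312, edgeR adjusted p = 0.0339) and was at 0.52 ± 0.30 in control (edgeR adjusted p = 0.227). Larp1, which binds mRNAs of the translation machinery when mTORC1 is inactive, rose in control (0.94 ± 0.32, edgeR adjusted p = 0.0354) and was at 0.73 ± 0.31 in cdKO (edgeR adjusted p = 0.122). Deptor, an inhibitor of mTOR, fell in control (-2.09 ± 0.47, edgeR adjusted p = 0.00300) and was at -1.24 ± 0.44 in cdKO (edgeR adjusted p = 0.0633). Rheb, the GTPase that activates mTORC1, rose in control (0.81 ± 0.26, edgeR adjusted p = 0.0257) and was at 0.39 ± 0.25 in cdKO (edgeR adjusted p = 0.340).

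The integrated stress response, in which phosphorylated eIF2 slows general initiation and favours a small set of mRNAs, was counted over 14 tested genes. Of these 2 rose and 3 fell in cdKO, and 3 rose and 3 fell in control, against 6.37% higher and 6.68% lower among all genes in cdKO and 10.6% and 11.0% in control. Asns, asparagine synthetase, rose by 1.92 ± 0.53 in cdKO and 2.85 ± 0.55 in control (edgeR adjusted p = 0.0170 and 0.000604). Ppp1r15a, the phosphatase subunit that restores eIF2, fell in cdKO and control (-1.15 ± 0.30 and -1.43 ± 0.30, edgeR adjusted p = 0.0129 and 0.00153). Atf3, a transcription factor of early stress, fell too (-1.31 ± 0.30 and -1.84 ± 0.31, edgeR adjusted p = 0.00531 and 0.000128). None of the 5 tested mitochondrial translation factors passed in either genotype, and no gene of any of these lists passed between genotypes or in the interaction.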

How the data were processed

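The authors deposited raw counts per gene for 12 libraries, whole numbers whose totals differ between libraries. The submitters' processing notes name HISAT2 2.2.1, featureCounts 2.0.1, Trim Galore 0.6.6 and DESeq2 1.26.0, and the build GRCm38. Not given in the sources used here are the annotation release, strand setting, molecular identifiers, interval since surgery, deleted exons and any pooling, so reads of a gene and an antisense partner cannot be told apart. Samples were mapped to 4 groups of 3 from their labels, and no count column was left out. Replicates differed beyond sampling noise (a chi-square over its degrees of freedom of 3.22 or more), which is more than repeat sequencing of the same library would give. Each was treated as 1 sample, but this spread cannot show that they came from separate animals.

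The counts were tested with edgeR 4.0.16 in R 4.3.3, with filterByExpr, TMM scaling and a robust quasi-likelihood fit of group means over all 12 libraries. Tests were two-sided, with Benjamini-Hochberg adjustment over 8161 genes for each of 5 comparisons (overload over sham in each genotype, cdKO over control at each load, and their interaction). Each standard error is the size of the log2 fold change over the square root of F, and intervals are 95%. The procedure was tested on simulated data. The genes, lists and alternatives were chosen with earlier results of these data known. Members named are those that passed in any comparison, the smallest p per role, the 3 largest changes each way and a few named by role, 35 in all by that rule, and others are named to complete a group. The members' E-box and CCAAT matches come from RefSeq promoter windows of GRCm38.p6, and coordinates and exon overlaps from the GENCODE annotation of GRCm38. Alternatives were DESeq2 1.42.0, edgeR with DESeq2's size factors, all genes kept whatever their counts, a replicate block, the Y-linked share of counts as a covariate, only the groups compared, control overload replicate 2 with control sham replicate 3 left out, and each library left out. Leaving out cdKO overload replicate 2 with control overload replicate 1 was added after seeing the data.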

Additional observations from a re-analysis of the deposited data

How the results depend on the processing

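The members' median log2 change with overload stayed above that of all genes in both genotypes when any 1 library was left out (0.35 to 0.58 in cdKO, 0.49 to 0.71 in control), and no called member changed direction under the 20 alternatives. Leaving out 1 library gave 3 to 10 members higher in cdKO, 14 to 22 higher in control and 0 to 2 lower in control. It gave 423 to 1287 and 1060 to 2508 genes called for overload in cdKO and control, 1 to 34 for cdKO over control under overload, 0 to 1 in sham and 0 to 1 in the interaction. With no filter on low counts, 702 genes were called for overload in cdKO, 17 for cdKO over control under overload, 10 in the interaction, and 0 members were lower in control. With the Y-linked covariate the control overload comparison had 7 members higher, 0 lower and 1031 genes called, cdKO over control under overload had 1 gene and a members' median of -0.08, and the interaction's median turned to 0.072. Without control overload replicate 2 and control sham replicate 3 the control comparison had 4 members higher, 0 lower and 712 genes, the sham comparison 0 genes, and the interaction's median was 0.0074. Fitting only the groups compared gave 1 gene under overload and 2 in sham, and DESeq2 gave 2 in sham and 1 in the interaction. Without cdKO overload replicate 2 and control overload replicate 1, an alternative added after seeing the data, there were 21 genes under overload, 2 in sham and 4 in the interaction. The cause of these shifts was not tested. Whether replicate numbers pair the libraries was not settled: 7 of 18 same-numbered pairs had deviations correlated above 0.1 (-0.20 to 0.31). The median correlation was 0.04 for same-numbered pairs and -0.02 for the other pairs. With the number as a replicate block 8 members were higher in cdKO and 18 in control, and Eif2s2 in cdKO lost its call (edgeR adjusted p = 0.0641).

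The 13 untested members held at most 103 counts each over all libraries and did not pass the filter on low counts.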
